A study of Mus musculus with 4 samples.

Results

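Non-cycling cortical thymic epithelial cells (cTECs) were described in 4 scRNA Seq libraries of mouse thymic lobes taken at E13-13.5. The cells were chosen by their own counts of unique molecular identifiers (UMIs), each of which stands for 1 captured transcript. Cells with fewer than 200 genes or over 10% mitochondrial UMIs were left out. Of the others, a cell was a member when it held at least 2 UMIs of Epcam, 2 of Krt18, 2 of Psmb11, and 5 of Ccl25, at most 1 of Ptprc and 1 of Top2a, fewer than 5 of Krt5, and none of Pdgfra or Gcm2. This gave 1036 cells of 29510 in all, and the 9 genes of the rule are not findings here. There were 596 cells in the Tbx1+/+ carrier library, 157 in the Tbx1neo2/neo2 carrier library, 126 in the Tbx1neo2/neo2 minoxidil library, and 157 in the Tbx1neo2/neo2 PGE2 library, and values below keep this order.

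Embryos came from Tbx1+/neo2 intercrosses whose dams had been injected IP at E8, E9, and E10 with carrier (ethanol), minoxidil, or prostaglandin E2 (PGE2). The neo2 allele, in which an intron of Tbx1 carries a neomycin cassette, is a hypomorph carried by every tissue, not only by TECs. All 3 Tbx1neo2/neo2 groups share that genotype, and no drug-treated Tbx1+/+ library was analysed here. Lobes of hypoplastic tissue were pooled, the number and sex of the embryos in a library are not known, and each condition has 1 library, so no test across embryos was possible and no p-value is given. Levels are counts per 1000000 UMIs (CPM) of the summed gated cells of a library, with exact Poisson 95% intervals that cover counting error only and neither the spread between cells nor that between embryos.

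The thymic cortex is built by cTECs, which take in T cell progenitors and support their commitment and first selection. Their identity rests on the transcription factor Foxn1. They attract progenitors with the chemokines Ccl25 and Cxcl12, feed them with the cytokines Il7 and Kitl, and impose the T cell fate through the Notch ligand Dll4. A cortical form of the proteasome with the subunit encoded by Psmb11 and the proteases encoded by Prss16 and Ctsl cut the peptides that cTECs show on class I and class II molecules. At the stage sampled here the epithelium is young, many TECs still divide, and medullary cells are few.

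Of the 5 marker genes that define the label, Psmb11 and Ccl25 were used by the rule, and Prss16, Ctsl, and Tbata were not. Prss16, a thymus serine protease, was at 801, 761, 774, and 817 CPM. After each cell was thinned to 10000 UMIs, Prss16 had a UMI in 94.4, 94.8, 92.0, and 97.4% of gated cells, against 4.53, 3.16, 3.17, and 3.02% of hematopoietic cells at the same depth, which shows the level that free RNA can give. Ctsl, the lysosomal protease cathepsin L, was at 2641, 2418, 2714, and 2888 CPM. Tbata, a gene with high expression in thymic stroma, was at 151, 104, 153, and 94.0 CPM and had a UMI in 40.1, 31.2, 43.2, and 26.3% of thinned gated cells, against 0.555, 0, 0, and 0.275% of hematopoietic cells. The markers were therefore present in every library, with Tbata in fewer of the cells than Prss16.

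Against other epithelial cells of the same libraries, the markers did not all behave alike. Since the rule chose the cells, these ratios are descriptions. The Krt5 epithelial cells passed the same Epcam, Krt18, Ptprc, and Pdgfra limits with at least 5 Krt5 UMIs and at most 1 Top2a UMI, and cycling epithelial cells had at least 5 Top2a UMIs. Prss16 was higher in gated cells than in Krt5 epithelial cells by a log2 ratio of 0.59, 0.73, 0.44, and 0.49. Ctsl was not higher than in Krt5 epithelial cells in any library, with log2 ratios of -0.05, -0.44, -0.31, and -0.18. Tbata was lower than in Krt5 epithelial cells in all 4 libraries, with log2 ratios of -0.58, -0.97, -0.58, and -1.30. Against cycling epithelial cells, all of these genes were higher, with log2 ratios of 1.11, 1.25, 1.19, and 1.08 for Prss16, 1.07, 0.96, 0.99, and 0.88 for Ctsl, and 2.31, 2.03, 1.83, and 1.499 for Tbata. Ctsl and Tbata thus set the cells apart from cycling TECs and not from Krt5 epithelial cells. Psmb11 and Ccl25 were set by the rule and say nothing here. Of the other listed cTEC markers, Ly75, Cxcl12, Cd83, and Dll4 were higher than in both epithelial populations in every library, as Prss16 was. Enpep was not, with log2 ratios of -1.54, -1.09, -0.12, and -0.08 against Krt5 epithelial cells, and Ackr4 had ratios of -1.08, -0.85, 0.66, and -0.06 against cycling epithelial cells. Foxn1, the factor of all TECs, had ratios of 0.17, -0.04, 0.03, and -0.09 against Krt5 epithelial cells.

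**Figure D1:**
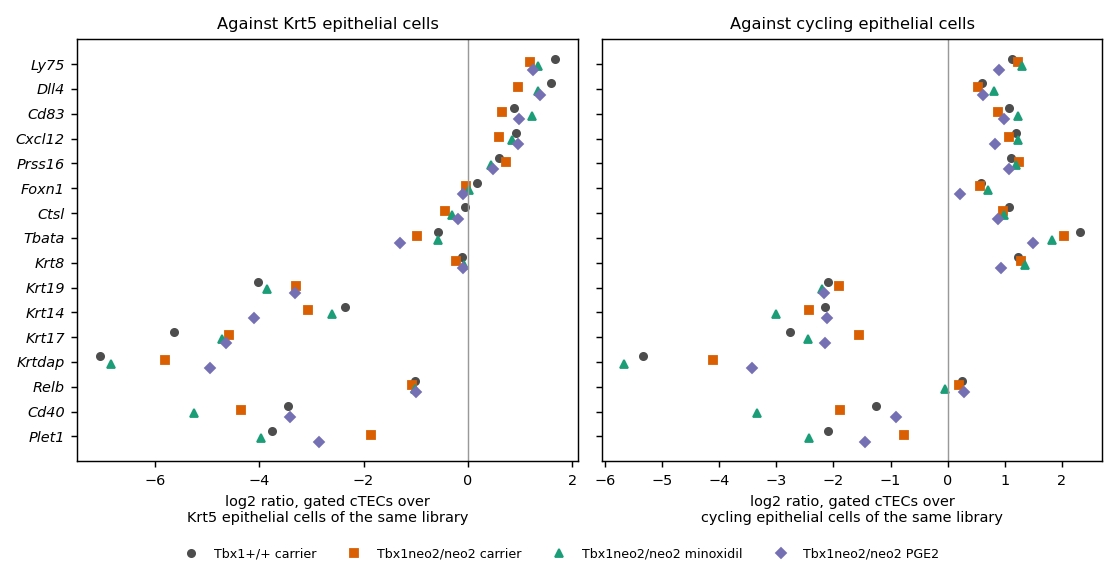
Log2 ratios of the level in gated cTECs over that in Krt5 epithelial cells (left) and in cycling epithelial cells (right) of the same library, with 1 symbol for each of the 4 libraries and no error bars. Ly75 lies right of 0 and Krt17, Krtdap, and Krt19 left of 0 in every library on both sides, while Tbata lies left of 0 on the left side and right of 0 on the right side.

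Outside the rule genes, those most above Krt5 epithelial cells in the lowest of the 4 libraries included Six2, Cpm, Enho, Nefm, Hes6, and Hpgd. The listed marker Ly75 was also among them. These genes were named here after their values were seen. Six2, a homeobox transcription factor, was at 105, 103, 135, and 99.6 CPM against 18.1, 20.2, 32.4, and 20.8 CPM in Krt5 epithelial cells. Hes6, a basic helix-loop-helix factor of the Hairy family, was at 544, 396, 479.9, and 354 CPM against 216, 174, 188, and 136 CPM. Hpgd, the dehydrogenase that inactivates prostaglandins including PGE2, was at 292, 266, 250.01, and 241 CPM against 102, 84.9, 111, and 76.2 CPM. Low in gated cells were the keratinocyte genes Krtdap (4.59, 7.58, 4.81, and 16.1 against 608, 422, 551, and 494 CPM) and Krt17 (62.2, 82.1, 78.9, and 83.8 against 3089, 1959, 2083, and 2072 CPM) and the metallothionein Mt1 (11, 4.10, 6.49, and 3.10 against 454, 374, 681, and 533 CPM). Over cycling epithelial cells, the genes with the highest ratio in the lowest library were Tbata and Ppp1r27, which encodes a regulatory subunit of protein phosphatase 1, and the 12 highest included the immunoproteasome subunit genes Psmb10 and Psmb9. Psmb10 was at 601, 478, 608, and 518 CPM against 219, 186, 231, and 243 CPM in cycling epithelial cells, and the simple-epithelium keratin Krt8 at 2940.3, 2621, 3152, and 2577 against 1243, 1078, 1227, and 1350.0 CPM. Mitotic genes such as Prc1 (9.10, 6.94, 7.32, and 9.09 against 274, 265, 251, and 339.9 CPM) and Aurkb (5.49, 3.79, 3.35, and 4.26 against 127, 106, 115, and 120.3 CPM) were far lower, which the Top2a limit of the rule favors.

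Tbx1 itself was near 0 in the gated cells, at 0.820, 1.26, 1.05, and 0.580 CPM, which is from 10, 4, 5, and 3 UMIs. The level was too low to check the genotype in these cells. In the mesenchymal cells of the same libraries Tbx1 was at 3.59, 2.61, 4.10, and 2.95 CPM.

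Transcripts of other cell types were counted in the gated cells, since droplets can hold free RNA or a second cell. Summed over 13 T lineage genes, the level was 97.7, 33.8, 43.7, and 43.9 CPM, and in the Tbx1+/+ carrier library Gzma made up 46.9 CPM of it. The 11 macrophage genes summed to 43.9, 7.26, 5.23, and 2.13 CPM, and the 12 mesenchymal genes to 118, 205, 62.1, and 77.2 CPM, with Col1a2 the most abundant in 3 of the libraries and Twist1 in the minoxidil library. Endothelial genes summed to 23.3, 41.7, 18.2, and 23.6 CPM, mostly Egfl7, and 6 parathyroid genes to 25.2, 5.37, 3.98, and 3.87 CPM, of which the hormone gene Pth was at 13.8 CPM in the Tbx1+/+ carrier library and at 0 in the other 3. Cartilage genes summed to 45.1, 53.3, 46.2, and 25.5 CPM, with Col2a1 the most abundant, and muscle genes to at most 9.15 CPM. The 9 neural and glial genes summed to 1249, 1049, 1237, and 819 CPM, nearly all from Stmn2, with the neural crest markers Sox10 and Foxd3 at 0 in every library. The 15 genes of medullary or bipotent TECs summed to 154, 182, 171, and 190.0 CPM, with Krt17 the most abundant, with Fezf2 at 0 in every library and Aire at 0 in all but the Tbx1neo2/neo2 carrier library, which held 1 UMI. Mesothelial genes summed to 20.3, 18.9, 15.5, and 21.7 CPM, mostly Krt19, granulocyte genes to at most 3.36 CPM, and thyroid genes to at most 1.07 CPM. T lineage and macrophage transcripts were thus highest in the Tbx1+/+ carrier library, where single cells carried much of them (1 cell held 78.8% of the UMIs of Gzma, and 1 cell 80.6% of those of C1qb). Mesenchymal transcripts were highest in the Tbx1neo2/neo2 carrier library. Their part in the ratios between libraries was not tested beyond the alternative without possible doublets.

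Hemoglobin came from a few cells. The 10 erythroid genes summed to 3524, 3276, 129.9, and 5592 CPM, but only 8, 1, 0, and 2 of the gated cells held 50 or more hemoglobin UMIs. In the Tbx1neo2/neo2 carrier library 1 cell held 96.2% of the UMIs of Hbb-bs, an adult beta globin gene. In the Tbx1+/+ carrier library 1 cell held 66.7% and 5 cells held 97.6% of the UMIs of the embryonic globin gene Hbb-y. Without the hemoglobin cells, the log2 ratio of Hbb-y between the carrier libraries went from -5.14 (-5.40 to -4.88) to 0.26, so that ratio came from these few cells.

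The libraries also differed in the sex of their cells. Xist, expressed from the inactive X chromosome of females, was at 117, 222, 464, and 0 CPM. The Y-linked genes Ddx3y (32.3, 31.2, 0, and 41.8 CPM) and Eif2s3y (30.3, 39.8, 0, and 44.3 CPM) were at 0 in the minoxidil library. The minoxidil library therefore held no Y-linked signal, the PGE2 library no Xist UMI in these cells, and the carrier libraries both. Xist was also at least 1.5-fold higher in the Tbx1neo2/neo2 carrier than in the Tbx1+/+ carrier library, with intervals that did not overlap. The mix of sexes may thus differ between the carrier libraries too. Sex and treatment cannot be told apart in either drug comparison, nor the mix of sexes and genotype between the carrier libraries. No barcode of a gated cell was shared between libraries, while 4 to 35 barcodes were shared per pair of libraries over all cells.

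Gated cells made up a like share of the epithelial cells in every library. They were 14.7% (exact Clopper-Pearson 95% interval 13.6% to 15.8%), 14.7% (12.6% to 17.0%), 13.2% (11.1% to 15.5%), and 12.8% (11% to 14.8%) of the 4062, 1067, 954, and 1227 cells that passed the Epcam, Krt18, Ptprc, and Pdgfra limits, and all intervals overlapped. Of all cells kept, the shares were 5.19%, 1.47%, 3.94%, and 3.78%, the lowest in the Tbx1neo2/neo2 carrier library, in which the epithelial cells were also fewest for the cells kept. Depth differed between libraries, with a median of 19839, 19411, 38843, and 32370 UMIs and 4440.5, 4245, 6000.5, and 5495.0 genes per gated cell. The sums were 12192962, 3168023, 4779858, and 5169575 UMIs, so that intervals are widest in the Tbx1neo2/neo2 carrier library, the control of both drug comparisons. A fixed UMI limit is easier to pass in a deeper cell. With all cells thinned to 10000 UMIs and gated again, the shares were 15.4%, 14.9%, 15.8%, and 13.1%. At the edge of the rule, 133, 42, 42, and 59 members had 1 UMI of Top2a, and 79, 32, 27, and 40 cells that met every other limit had 2. Non-cycling therefore means only few Top2a UMIs. Other G2 and M phase transcripts were present, with a UMI of Birc5 in 256, 76, 63, and 81 of the gated cells and of Mki67 in 176, 64, 53, and 71.

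None of the cTEC markers that could be compared was past 1.5-fold in the 3 comparisons made, each drug and the Tbx1+/+ carrier against the Tbx1neo2/neo2 carrier library. A gene is called past 1.5-fold here when its level differed at least 1.5-fold between a pair of libraries with intervals that did not overlap, counting only genes that reached 20 CPM in either library. Of 14 listed cTEC markers, 2 were in the rule and 10 of the others could be compared. Under the 20 CPM needed were Ackr4, a scavenging chemokine receptor, at 2.62, 3.16, 10.04, and 14.1 CPM, and Enpep, a surface peptidase, at 3.28, 0.631, 2.51, and 4.84 CPM. Ackr4 was highest in both drug libraries, and Enpep was lowest in the Tbx1neo2/neo2 carrier library. Over all genes compared, 0.527% were past 1.5-fold higher and 1.99% lower in the Tbx1neo2/neo2 carrier than in the Tbx1+/+ carrier library, 3.27% and 1.17% in the minoxidil library, and 2.22% and 1.62% in the PGE2 library than in the Tbx1neo2/neo2 carrier library, so a count of 0 among so few genes lies near that background. Their median log2 ratio was -0.23 for the Tbx1neo2/neo2 carrier over the Tbx1+/+ carrier library, beside -0.06 over all genes compared. It was 0.30 for minoxidil over the Tbx1neo2/neo2 carrier, beside 0.04, and 0.11 for PGE2 over the Tbx1neo2/neo2 carrier, beside 0.03. Summed over the list without the rule genes, the level was 4803, 4358, 4945, and 4924 CPM, lowest in the Tbx1neo2/neo2 carrier library with an interval (4285 to 4431) apart from that of the Tbx1+/+ carrier library (4764 to 4842). Ctsl alone made up 2641, 2418, 2714, and 2888 CPM of these sums. Cxcl12 was at 248, 183, 242, and 215 CPM, and Ly75, an endocytic receptor of cTECs and dendritic cells, at 107, 85.5, 122, and 120.3 CPM. Dll4 was at 31.8, 24.6, 31.8, and 26.9 CPM, with all 4 intervals overlapping. Tbata was at 151, 104, 153, and 94.0 CPM, under 1.5-fold in all 3 comparisons, but over 1.5-fold lower in the PGE2 library than in the Tbx1+/+ carrier and minoxidil libraries, with intervals that did not overlap.

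No TEC transcription factor was past 1.5-fold either, of 12, 13, and 12 that could be compared of 19 listed, again near the background of all genes. Foxn1 was at 154, 159, 167, and 133 CPM, Pax1, a paired box factor of the pharyngeal pouch, at 770.2, 683, 795, and 749 CPM, and Pax9, its close relative, at 176, 158, 191, and 158 CPM. Foxn1 was lowest in the PGE2 library, and Pax1 in the Tbx1neo2/neo2 carrier library. Of 20 listed ligands for developing T cells and neighboring cells, 13 could be compared. The cytokine gene Il7 was at 465, 444, 524, and 454 CPM and Kitl at 138, 130.4, 141, and 108 CPM, with neither past 1.5-fold. The growth factor genes Bmp4 and Vegfa varied more. Bmp4 was at 61.5, 38.5, 56.1, and 24.6 CPM and Vegfa, which draws blood vessels, at 48.3, 29.4, 63.6, and 17.8 CPM, and both were lower in the Tbx1neo2/neo2 carrier than in the Tbx1+/+ carrier library and lowest in the PGE2 library. Vegfa was past 1.5-fold higher in the minoxidil library than in its control, where Bmp4 was not past that limit.

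**Figure D2:**
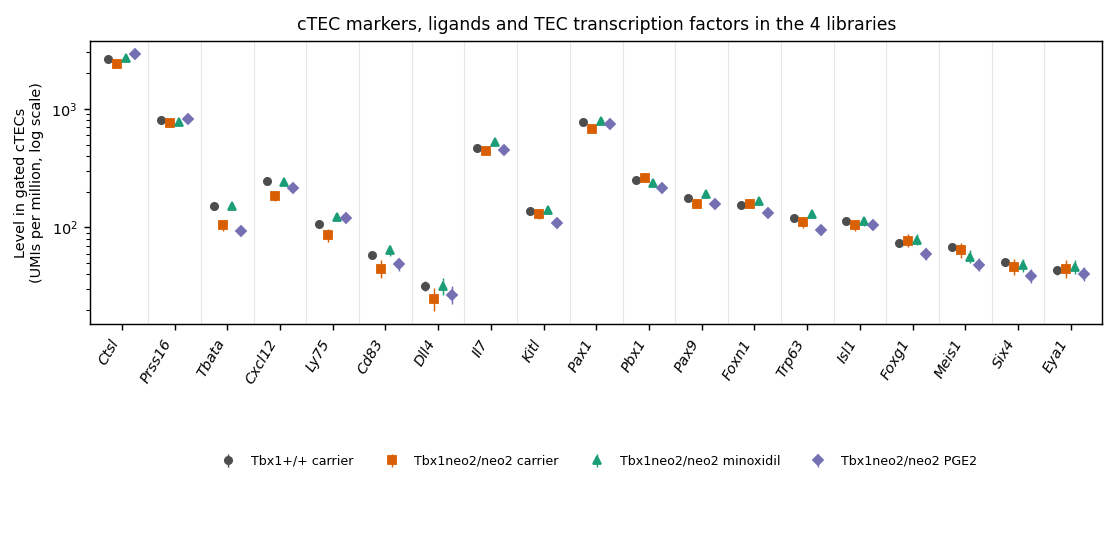
Levels of cTEC markers, ligands, and TEC transcription factors in gated cTECs, in CPM on a log scale, with 1 symbol for each of the 4 libraries and bars for exact Poisson 95% intervals. The 4 symbols of a gene lie close together for Ctsl, Prss16, Il7, and Pax1, and Tbata is lower in the Tbx1neo2/neo2 carrier and PGE2 libraries (104 and 94.0 CPM) than in the other 2.

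Few antigen processing genes were past 1.5-fold, at counts too small to set against the background. Of 20 proteasome and class I genes, 1 of 15 compared was lower in the Tbx1neo2/neo2 carrier library, H2-D1, a classical class I gene, at 28.2, 18.0, 18.6, and 35.8 CPM, which was past 1.5-fold higher in the PGE2 library than in the Tbx1neo2/neo2 carrier library. Psmb9, an interferon-inducible proteasome subunit, was at 111, 76.4, 132, and 129.99 CPM and was past 1.5-fold higher in both drug libraries than in their shared control. Among 16 class II and lysosomal genes, 1 of 10 compared was past 1.5-fold in any comparison, Ctsb, a lysosomal cathepsin, at 39.3, 23.7, 31.8, and 27.7 CPM, lower in the Tbx1neo2/neo2 carrier than in the Tbx1+/+ carrier library. The class II genes H2-Ab1 (577, 551, 600.2, and 627 CPM) and Cd74, the invariant chain (520.5, 449.8, 571, and 669.7 CPM), were not past 1.5-fold in any of the 3. Of 17 keratin and junction genes, none was past 1.5-fold, of 8, 8, and 7 compared. Among 20 basement membrane genes, Lama3, a laminin chain of epithelial basement membranes, at 33.5, 21.5, 34.9, and 32.5 CPM, was lower in the Tbx1neo2/neo2 carrier library than in each of the other 3. Col4a5, a basement membrane collagen, was the other gene of that list past 1.5-fold, at 18.9, 15.5, 25.7, and 18.2 CPM and higher in the minoxidil library than in its control. No gene of the BMP and TGF-beta, WNT, Notch, or Hedgehog response lists was past 1.5-fold in any comparison, with 7, 3, 3 to 4, and 2 genes compared.

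The genes through which the drugs are thought to act were mostly near 0. PGE2 signals through 4 receptors, and the levels of their genes were 0.0820, 0.947, 0.628, and 0.193 CPM for Ptger1, 0.246, 0.316, 0.418, and 0.580 CPM for Ptger2, 1.07, 1.58, 0.628, and 1.35 CPM for Ptger3, and 2.21, 1.58, 2.93, and 3.10 CPM for Ptger4. At these levels no difference between libraries was detectable. The subunits of the potassium channel that minoxidil opens in smooth muscle were at most 1.16 CPM for Kcnj8 and 0.738 CPM for Abcc9. Present at higher levels were Hpgd (above), the prostaglandin transporter gene Slco2a1 (29.5, 31.2, 24.3, and 31.5 CPM), and Ptges3, a prostaglandin synthase and cochaperone (315, 380.0, 337, and 346 CPM), none of them past 1.5-fold. Plod2, a collagen lysyl hydroxylase, was at 41.4, 27.1, 51.3, and 25.3 CPM, past 1.5-fold lower in the Tbx1neo2/neo2 carrier than in the Tbx1+/+ carrier library and past 1.5-fold higher in the minoxidil library than in the Tbx1neo2/neo2 carrier library.

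Comparing the carrier libraries asks what the genotype goes with in these cells. Among the lists, that of immediate early and heat shock genes held the most genes past 1.5-fold, 11 of the 113 lower genes. Immediate early genes are transcribed within minutes of a stimulus, growth factors and tissue dissociation included. Of 5691 genes compared, 30 were past 1.5-fold higher (0.527%) and 113 lower (1.99%) in the Tbx1neo2/neo2 carrier library. Higher genes were 21.0% of those past 1.5-fold, and 37.2% with TMM factors, 33.7% with totals that leave out mitochondrial, ribosomal protein, hemoglobin, and rule genes, and 38.0% with the gate set on thinned counts, so lower genes were in the majority under each. Among 22 listed immediate early and heat shock genes, 11 of 18 compared were lower and none higher, with a median log2 ratio of -0.64. Fos, a subunit of the AP-1 transcription factor, was at 617 (95% interval 603 to 631), 146 (133 to 160.4), 392 (374 to 409.8), and 875 (849.8 to 901) CPM, and the log2 ratio between the carrier libraries was -2.07 (-2.21 to -1.94). In thinned cells a Fos UMI was found in 89.1, 50.6, 80.0, and 94.9% of gated cells, and in 75.9, 36.2, 69.8, and 81.6% of hematopoietic cells, so the difference between libraries was not confined to the epithelium. Nr4a1, a nuclear receptor induced by stimuli, was at 36.3, 7.89, 40.6, and 29.98 CPM. Dusp1, a phosphatase that turns off MAP kinases, was at 44.5, 12.9, 34.7, and 32.3 CPM, and Klf2, a zinc finger factor, at 27.1, 4.73, 11.1, and 35.2 CPM. In each of them the Tbx1neo2/neo2 carrier library was the lowest of the 4. The other 7 were Fosb, Egr1, Ier3, Klf4, Klf6, Zfp36, and Dnajb1.

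**Figure D3:**
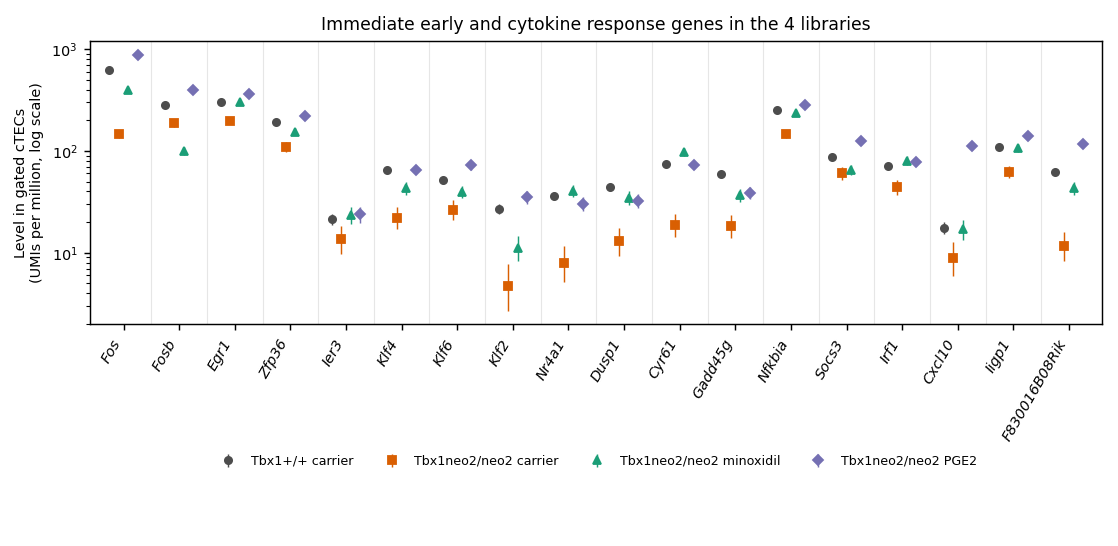
Levels of immediate early and cytokine response genes in gated cTECs, in CPM on a log scale, with 1 symbol for each of the 4 libraries and bars for exact Poisson 95% intervals. The Tbx1neo2/neo2 carrier library is the lowest of the 4 for every gene shown except Fosb, which is lowest in the minoxidil library, and the PGE2 library is the highest for Fos, Cxcl10, and F830016B08Rik.

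Fos was lower in the other cells of that library too. Its log2 ratio between the carrier libraries was -1.98 in Krt5 epithelial, -2.06 in cycling epithelial, -1.92 in hematopoietic, and -2.90 in mesenchymal cells. Over all 113 genes lower in the gated cells, 19 were past 1.5-fold lower in at least 3 of these 4 other populations and 53 in none. Here and below, the share of all genes past 1.5-fold in those populations was not counted, so such counts have no background. The populations also differ in summed UMIs, in the Tbx1neo2/neo2 carrier library from 2226551 in Krt5 epithelial to 52853318 in mesenchymal cells. Fewer UMIs give wider intervals and so fewer genes past 1.5-fold. Of the 113, 17 stayed past 1.5-fold in all 12 alternatives of gating, scaling, and summing, and 10 of those 17 were also lower in at least 3 other populations. Outside the list, the 17 included Ifitm1, Cyr61, Gadd45g, Pim3, and Nfkbia. Ifitm1, an interferon-induced membrane protein, was at 71.8, 9.15, 23.6, and 22.6 CPM, and 1 cell held 29.9% of its UMIs in the Tbx1+/+ carrier library. Cyr61, a secreted matrix protein induced by YAP, was at 75.1, 18.6, 97.5, and 72.9 CPM. Gadd45g, a stress and differentiation gene, was at 59.0, 18.3, 36.6, and 38.5 CPM. In all 3 genes the Tbx1neo2/neo2 carrier library was the lowest of the 4 and its interval overlapped no other.

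Because these genes were lower together, the 250 bases upstream of the start were read from the RefSeq promoter table (GRCm38.p6, the same assembly as mm10) for Fos, a factor gene, and Dusp1, a feedback phosphatase gene. The core of the cyclic AMP response element, TGACG, was searched on both strands, and capitals mark each match. PGE2 is known to raise cyclic AMP through a pair of its receptors. The genes were chosen here from the carrier libraries, neither of which had PGE2, and a link to PGE2 was not tested. The Fos sequence lies at chr12:85473640-85473889 on the plus strand and the Dusp1 sequence at chr17:26508473-26508722 on the minus strand, each printed 5' to 3' toward the start.
Fos: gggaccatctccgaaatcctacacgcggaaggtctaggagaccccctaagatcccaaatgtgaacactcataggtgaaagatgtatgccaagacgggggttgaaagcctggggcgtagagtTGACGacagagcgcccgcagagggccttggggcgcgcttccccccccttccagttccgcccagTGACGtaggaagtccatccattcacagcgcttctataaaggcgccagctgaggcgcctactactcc
Dusp1: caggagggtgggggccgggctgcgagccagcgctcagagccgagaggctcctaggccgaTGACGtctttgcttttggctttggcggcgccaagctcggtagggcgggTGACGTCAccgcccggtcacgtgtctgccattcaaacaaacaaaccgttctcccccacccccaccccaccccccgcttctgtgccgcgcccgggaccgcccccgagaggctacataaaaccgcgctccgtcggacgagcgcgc
Fos held 2 matches and Dusp1 3, of which a pair overlap on opposite strands as TGACGTCA. Of the 11 listed genes that were lower, 10 had a promoter in the table and 7 of these held TGACG, beside 11 of 19 over the whole list and 17.8% of all 32851 promoters. A listed gene was counted when any of its promoters held a match, whereas the 17.8% counts single promoters. The shares are therefore not strictly comparable. A match is a description of the letters and does not show that a factor bound there.

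Part of the FGF response list was also lower in the Tbx1neo2/neo2 carrier library. The feedback inhibitors in it are switched on by the receptors for FGF7 and FGF10, the growth factors that thymic mesenchyme gives to TECs. Of 10 listed genes, 3 of 5 compared were lower. Spry1 was at 20.3, 10.1, 13.6, and 23.6 CPM, Spred1 at 31.6, 20.2, 27.6, and 31.0 CPM, and Dusp6 at 22.3, 13.9, 18.8, and 16.8 CPM. Spry2, a further inhibitor, at 22.6, 25.3, 35.6, and 17.4 CPM, and the receptor gene Fgfr2, at 161, 146, 143, and 118 CPM, were not past 1.5-fold. Spry1, Spred1, and Dusp6 were highest in the Tbx1+/+ carrier or the PGE2 library, and each lies near the 20 CPM limit, with intervals several CPM wide. Interferon response genes followed, with 3 of 7 compared lower of 16 listed, namely Irf1 (70.9, 43.9, 80.1, and 78.3 CPM), Isg15 (37.0, 22.7, 31.4, and 32.5 CPM), and Gbp2 (20.01, 9.79, 14.9, and 11 CPM). Among 18 glycolysis and hypoxia genes, 4 of 14 compared were lower, Pgk1, Slc2a1, Vegfa, and Ankrd37. Slc2a1, the glucose transporter of most embryonic cells, was at 33.6, 20.8, 37.9, and 17.2 CPM. Ddit4, an inhibitor of mTOR induced by stress, was at 72.0, 44.8, 72.4, and 27.9 CPM, lower in the Tbx1neo2/neo2 carrier than in the Tbx1+/+ carrier library and lower still in the PGE2 library.

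Few genes were higher in the Tbx1neo2/neo2 carrier library, and 3 of them belong to the list of mesenchymal genes. Dcn, a proteoglycan of fibroblasts, was at 15.1, 40.7, 2.93, and 6.77 CPM, Col3a1, a fibrillar collagen, at 19.5, 37.9, 12.3, and 14.5 CPM, and Col1a2 at 27.5, 43.9, 17.2, and 16.1 CPM. Of 4 mesenchymal genes compared of 12 listed, these 3 were higher and none lower, and the summed mesenchymal level was highest in this library (above). The part of RNA from other cells in these values was not tested. Vim, an intermediate filament gene of mesenchymal cells, was at 47.2, 90.6, 33.7, and 39.3 CPM, but 5 cells held 65.5% of its UMIs in the Tbx1neo2/neo2 carrier library. With the 3% of cells highest in each gene left out, the log2 ratio of Vim was 0.22 in place of 0.94 (0.73 to 1.15). Igfbp5, which binds insulin-like growth factors, was at 52.5, 82.7, 48.5, and 25.7 CPM, with 5 cells holding 55.3% of its UMIs in that library. The imprinted genes Mest (9.27, 23.0, 2.93, and 3.10 CPM) and Nnat (15.6, 26.5, 22.0, and 18.2 CPM) were higher as well, with 8 of 10 imprinted genes compared not past 1.5-fold. Bex1, a small adaptor protein gene, was at 29.4, 50.5, 29.1, and 25.9 CPM, Itm2a, an integral membrane protein gene, at 36.1, 59.97, 22.2, and 28.0 CPM, and Slc24a5, an ion exchanger, at 46.2, 69.8, 60.7, and 59.0 CPM. The log2 ratio of Itm2a was 0.73 (0.48 to 0.98) and turned to -0.31 when cells with over 5% mitochondrial UMIs were left out. Of the 30, only 1 stayed past 1.5-fold in all 12 alternatives, B930036N10Rik, at 10.9, 25.9, 12.8, and 13.5 CPM.

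Minoxidil was compared with the Tbx1neo2/neo2 carrier library, which also serves as the control for PGE2 and in which the early genes were low. Of 5724 genes compared, 187 were past 1.5-fold higher (3.27%) and 67 lower (1.17%). Higher genes were 73.6% of those past 1.5-fold, 62.9% with those reduced totals, and 84.9% without the 3% of cells highest in each gene. Part of this was found in other cell types too. Of the 187 genes, 49 were past 1.5-fold higher in at least 3 of the 4 other populations and 80 in none, and of the 36 that stayed past 1.5-fold in all alternatives 27 were. Nme2, a nucleoside diphosphate kinase, was at 7.22, 5.997, 65.3, and 11.6 CPM, and its log2 ratio of 3.44 (2.78 to 4.196) in gated cells stood beside 2.87, 3.49, 3.44, and 3.39 in Krt5 epithelial, cycling epithelial, hematopoietic, and mesenchymal cells. Bloc1s1, a subunit of a complex of lysosome-related organelles, was at 23.5, 17.4, 73.2, and 23.0 CPM, with a log2 ratio of 2.08 (1.66 to 2.51) beside 2.02, 2.01, 1.75, and 2.26. Rpl15 (924, 840.3, 2042, and 1057 CPM), Gstp1 (42.2, 32.8, 136, and 58.0 CPM), and the histone gene Hist1h2ap (58.5, 36.3, 251, and 89.0 CPM) behaved in the same way. Each of these genes was past 1.5-fold higher in all 4 other populations. Several of them have near-identical copies or pseudogenes, and whether this affects their counts was not tested.

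Of 14 glycolysis and hypoxia genes compared, 6 were past 1.5-fold higher in the minoxidil library and 8 were not past 1.5-fold, with a median log2 ratio of 0.44. Pgk1, a glycolytic kinase on the X chromosome, was at 133, 79.9, 342, and 81.8 CPM, with a log2 ratio of 2.10 (1.91 to 2.30) and ratios of 2.39, 2.22, 2.03, and 1.36 in the other populations. Eno1, another glycolytic enzyme, was at 544, 444, 709.9, and 473 CPM, Bnip3, a mitophagy gene induced by hypoxia, at 159.9, 113, 189.8, and 84.1 CPM, and Ankrd37, a target of hypoxia-inducible factor, at 29.1, 17.0, 38.1, and 10.3 CPM. Vegfa and Slc2a1 (above) were the other 2. For Vegfa, Eno1, and Pgk1 the minoxidil library was higher than the Tbx1+/+ carrier library as well, with intervals that did not overlap. None of these genes was past 1.5-fold higher in the PGE2 library.

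The immediate early genes were split in the minoxidil library. Of 17 compared, 6 were higher (Fos, Egr1, Ier3, Klf4, Nr4a1, and Dusp1) and 2 lower. Fos was at 392 (95% interval 374 to 409.8) CPM, a log2 ratio of 1.42 (1.27 to 1.57), and remained under its level in the Tbx1+/+ carrier library. Nr4a1 was at 40.6 CPM, a log2 ratio of 2.36 (1.76 to 3.03). Fosb and Jun, further AP-1 subunits, were lower. Fosb was at 282, 186, 99.0, and 399 CPM, a log2 ratio of -0.91 (-1.09 to -0.73), with ratios of -0.20, 0.06, 1.19, and 1.40 in the other populations, where hematopoietic and mesenchymal cells went the other way. Jun was at 632, 580.5, 344, and 859 CPM, a log2 ratio of -0.75 (-0.85 to -0.66). Fosb and Jun in the minoxidil library were therefore the lowest of the 4, while Fos was not.

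Of the interferon response genes, Irf1 (above) was past 1.5-fold higher in the minoxidil library than in its control. Of the 36 stable genes, 3 were past 1.5-fold higher in none of the other 4 populations, though no difference between populations was tested. Foxo3, a transcription factor of stress resistance, was at 46.1, 36.3, 68.8, and 40.8 CPM, Pim1, a serine kinase, at 45.9, 32.8, 51.5, and 43.9 CPM, and Riiad1 at 55.3, 48.3, 81.6, and 75.6 CPM. Their log2 ratios were in the same direction in Krt5 epithelial cells, 0.59 for Foxo3, 0.51 for Pim1, and 0.55 for Riiad1, beside 0.92 (0.61 to 1.24), 0.65 (0.31 to 0.99), and 0.76 (0.48 to 1.04) in the gated cells. In cycling epithelial, hematopoietic, and mesenchymal cells the ratios were 0.36, 0.34, and 0.03 for Foxo3 and 0.52, 0.51, and 0.32 for Pim1. For Riiad1 they were 0.15, 0.83, and -0.54. Cyp26b1, which degrades retinoic acid, was at 50.7, 35.0, 57.5, and 31.3 CPM, the 1 gene of the 3 compared in the retinoic acid list that was past 1.5-fold. Mreg, melanoregulin, at 81.5, 64.4, 149, and 75.8 CPM, and Dact2, an inhibitor of WNT and TGF-beta signals, at 84.0, 95.6, 164, and 160.0 CPM, were higher too, Dact2 in both drug libraries. Mreg and Dact2 were picked after their values were seen.

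Among genes lower in the minoxidil library, mesenchymal and erythroid transcripts led. All 4 mesenchymal genes compared were lower, Dcn with a log2 ratio of -3.80 (-4.71 to -3.00) and Col1a2 of -1.35 (-1.77 to -0.95), as were all 5 erythroid genes. Hbb-bs, whose UMIs in the control came mostly from 1 cell (above), had a log2 ratio of -4.66 (-4.84 to -4.49), which became 0.04 without the hemoglobin cells. Of 12 G2 and M phase genes compared, 7 were lower, among them Mki67 (35.4, 42.3, 24.9, and 42.9 CPM), Cenpf (58.3, 58.4, 38.1, and 51.8 CPM), and Ccnb1 (25.9, 29.99, 17.6, and 26.3 CPM). The rule limits Top2a by a fixed number of UMIs, and minoxidil cells are the deepest. With the gate set on thinned counts, which allows no Top2a UMI and changes several other limits, none of the 12 was past 1.5-fold. Depth and limits change together there, so the part of depth in these ratios was not tested. No S phase gene of 15 compared was past 1.5-fold. Sox11, a Sox family factor of progenitors, was at 22.5, 31.2, 19, and 7.35 CPM, lower in both drug libraries than in their control. Peg3, an imprinted zinc finger gene, was at 57.6, 79.5, 37.4, and 58.2 CPM and Mest at 2.93 CPM. Of the 67 lower genes, 4 stayed past 1.5-fold in all alternatives, namely Eif2s3y, Ddx3y, Hbb-y, and Fosb, of which Eif2s3y and Ddx3y follow the absence of Y-linked signal.

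In the PGE2 library early genes were again higher than in the Tbx1neo2/neo2 carrier library, and Fos, Fosb, Jun, and Klf6 were above all 3 other libraries. Of 5629 genes compared with the Tbx1neo2/neo2 carrier library, 125 were past 1.5-fold higher (2.22%) and 91 lower (1.62%). Higher genes were 57.9% of those past 1.5-fold, but 48.9% with those reduced totals and 48.2% with the gate set on thinned counts, and 73.8% (149 higher and 53 lower) without the 3% of cells highest in each gene. Of 18 immediate early and heat shock genes compared, 10 were higher, with a median log2 ratio of 0.85, and 1 was lower, the small heat shock gene Hspb1 (97.4, 94.7, 83.3, and 51.5 CPM). Fos was at 875 (95% interval 849.8 to 901) CPM, a log2 ratio of 2.58 (2.44 to 2.72) over the Tbx1neo2/neo2 carrier library, and above the 617 CPM of the Tbx1+/+ carrier library with no overlap of intervals. Klf6, a Kruppel-like factor, was at 51.7, 26.5, 39.5, and 72.3 CPM and also highest in the PGE2 library. Klf4 (64.8, 22.1, 42.9, and 65.6 CPM) and Egr1 (305, 198, 302, and 365 CPM) followed, Klf4 with an interval that overlapped that of the Tbx1+/+ carrier library. Nr4a1 and Dusp1 in the PGE2 library, at 29.98 and 32.3 CPM, were under their levels in the Tbx1+/+ carrier library, for Nr4a1 with intervals that overlapped. In the other populations the PGE2 ratio of Fos was 1.97, 2.37, 2.58, and 3.25, and 21 of the 125 genes were past 1.5-fold higher in at least 3 of the 4.

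**Figure D4:**
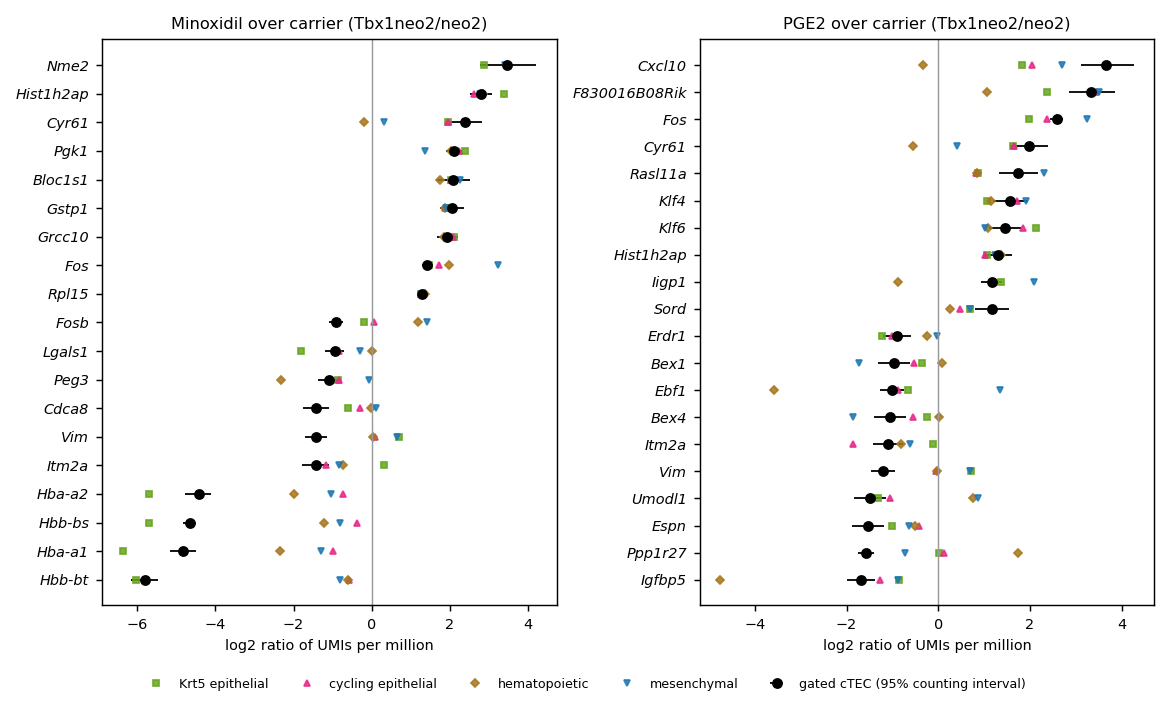
Log2 ratios of minoxidil (left) and PGE2 (right) over the Tbx1neo2/neo2 carrier library for named genes with the highest and lowest ratios, in gated cTECs (black circles, with bars for 95% counting intervals) and in 4 other populations of the same libraries (colored symbols, no bars). For Nme2, Bloc1s1, and Rpl15 on the left the symbols fall together, whereas for Ppp1r27 on the right the black circle at -1.57 lies apart from those of Krt5 and cycling epithelial cells near 0.

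The highest named PGE2 ratios were those of Cxcl10, F830016B08Rik, and Fos. Cxcl10, a chemokine gene induced by interferon and NF-kB, was at 17.4, 8.84, 16.9, and 112 CPM, a log2 ratio of 3.66 (3.11 to 4.26). Its UMIs came from 21 of 157 cells in the PGE2 library, 5 of which held 57.9%, and from 3 cells in the control. In thinned cells a Cxcl10 UMI was found in 4.78, 1.30, 5.60, and 8.97% of gated cells and in 6.29, 3.79, 7.94, and 8.52% of hematopoietic cells, so the share was under that of hematopoietic cells in 3 libraries and close to it in the PGE2 library. Its PGE2 log2 ratio in the other populations was 1.83, 2.04, -0.33, and 2.70 in Krt5 epithelial, cycling epithelial, hematopoietic, and mesenchymal cells. In hematopoietic cells the summed level was thus not higher, although the share of thinned cells with a UMI was (8.52 against 3.79%). The high level came from few cells with many UMIs, and the part of free RNA in it was not tested. Without possible doublets the log2 ratio was 1.80. F830016B08Rik, an interferon-inducible GTPase family member, was more widely found, at 62.4, 11.7, 42.9, and 117 CPM and with a UMI in 13.5, 5.84, 15.2, and 26.3% of thinned gated cells against 0.555, 0.211, 0.397, and 1.65% of hematopoietic cells. Iigp1, a GTPase of the same family, was at 109.7, 62.2, 107, and 139 CPM, Socs3, a feedback inhibitor of cytokine receptors, at 86.3, 60.6, 64.6, and 125 CPM, and Nfkbia, the inhibitor of NF-kB, at 249, 147, 237, and 283 CPM. For Socs3 and Iigp1 the PGE2 library was the highest of the 4 with no overlap of intervals. Of the 16 genes in the interferon list, 1 of 6 compared was past 1.5-fold higher, Irf1, and Socs3 and Nfkbia were picked after their values were seen.

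Since Cxcl10 led the PGE2 comparison, its upstream sequence is shown with matches on both strands, in capitals, to an NF-kB site (GGGA, then 4 letters of any kind, then CC) and to an interferon response element (TTTC, then 2 letters of any kind, then TTTC). It is read from the same RefSeq table at chr5:92348890-92349139 on the minus strand.
Cxcl10: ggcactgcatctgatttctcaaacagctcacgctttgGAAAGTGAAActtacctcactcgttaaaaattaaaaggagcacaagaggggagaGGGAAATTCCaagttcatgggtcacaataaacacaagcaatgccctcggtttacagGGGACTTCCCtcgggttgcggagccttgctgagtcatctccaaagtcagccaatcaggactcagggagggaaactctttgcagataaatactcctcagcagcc
The sequence held 2 matches of the first and 1 of the second, which are present in 17.6% and 2.98% of all promoters in the table.

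Further genes were higher in the PGE2 library in gated cells. Rasl11a, a Ras-like GTPase, was at 24.2, 18.3, 21.8, and 60.9 CPM, Nqo1, a quinone reductase of the oxidative stress response, at 16.7, 13.9, 19.7, and 36.6 CPM, Tst, a mitochondrial sulfurtransferase, at 149.6, 142, 163, and 270.4 CPM, and Sord, sorbitol dehydrogenase, at 32.8, 25.6, 34.9, and 57.3 CPM. The PGE2 library was the highest of the 4 for each, without overlap. The log2 ratio of Tst, 0.93 in gated cells, stood beside 0.53, 0.54, 0.34, and 0.88 in Krt5 epithelial, cycling epithelial, hematopoietic, and mesenchymal cells, higher in each, and whether the populations differ was not tested. Spry1 and Spred1 were higher than in the control, as 2 of 4 FGF response genes compared, and reached the level of the Tbx1+/+ carrier library. Sox9, the chondrogenic Sox factor, was at 23.0, 19.6, 13, and 35.6 CPM, highest in the PGE2 library and lowest in the minoxidil library. Of the cartilage genes, none reached 20 CPM in either library and could be compared. Col2a1, a cartilage collagen, was at 18.1, 19.6, 21.8, and 10.8 CPM, and the summed list (above) was lowest in the PGE2 library. Relb, an NF-kB subunit of medullary TEC development, was at 34.8, 28.7, 35.6, and 43.3 CPM, while the medullary chemokine Ccl21a (gene ENSMUSG00000094686) was at 37.2, 48.0, 38.7, and 25.5 CPM, lower in the PGE2 library than in its control, where most of its UMIs came from 5 cells.

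Ppp1r27, Umodl1, Espn, and Arhgdig were among the genes lower in the PGE2 library. Of the 91 lower genes, 54 were past 1.5-fold lower in none of the other populations and 8 in at least 3. These counts have no background (above), and whether the populations differ was not tested. Ppp1r27 was at 189.6, 251, 312, and 84.7 CPM, a log2 ratio of -1.57 (-1.74 to -1.40), with ratios of 0.01, 0.13, 1.75, and -0.73 in Krt5 epithelial, cycling epithelial, hematopoietic, and mesenchymal cells. A UMI of Ppp1r27 was found in 40.3, 42.2, 45.6, and 28.2% of thinned gated cells and in at most 0.648% of hematopoietic cells. Leaving out possible doublets, which removes the largest cells and keeps 39 in the PGE2 library and 95 in its control, brought its log2 ratio to -0.45. Umodl1, a uromodulin-like membrane protein, was at 80.7, 59.0, 79.9, and 21.1 CPM, and Espn, an actin-bundling protein, at 50.4, 59.0, 53.6, and 20.5 CPM. Arhgdig, a regulator of small GTPases, was at 26.7, 36.6, 47.3, and 7.54 CPM, with lower ratios in the other populations as well (-0.47, -1.10, -1.29, and -1.61), and Ebf1, a transcription factor, at 68.6, 91.2, 101, and 45.5 CPM. Ptn, the growth factor pleiotrophin, was at 1902, 1996, 1963, and 1271 CPM, its interval in the PGE2 library far from the other 3. For all of these genes the PGE2 library was the lowest of the 4.

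A pair of genes that hold the cell cycle was lower in the PGE2 library as well. Cdkn1c, an imprinted inhibitor of the cell cycle, was at 276, 266, 197, and 163 CPM, and Cdkn1a, its p53-induced relative, at 29.6, 28.4, 23.9, and 14.1 CPM, the 2 of 15 S phase list genes past 1.5-fold. Of 12 G2 and M phase genes none was. Of 13 ligands compared, 4 were lower, Bmp4, Vegfa, Tgfb2 (18.0, 20.8, 14.0, and 8.12 CPM), and Ccl21a, and 9 were not past 1.5-fold, Il7 and Cxcl12 among them. Sox11 was at 7.35 CPM, a log2 ratio of -2.09 (-2.67 to -1.53), and Igfbp5 was at 25.7 CPM. As in the minoxidil library, all 4 mesenchymal genes compared were lower than in the control, where their sum was highest. The stable genes, 11 of the 91, included Arhgdig, Sox11, Igfbp5, Espn, Umodl1, Ebf1, Casz1, and Ptn.

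The remaining lists held few genes past 1.5-fold. Of 10 cholesterol synthesis genes compared, Cyp51, a demethylase of sterol synthesis, was at 45.1, 29.0, 40.0, and 57.5 CPM, lower in the Tbx1neo2/neo2 carrier than in the Tbx1+/+ carrier library and higher in the PGE2 library than in its control. Of 4 nuclear retained RNAs, Neat1, the scaffold of paraspeckles, was at 32.1, 18.9, 29.3, and 34 CPM, past 1.5-fold lower in the Tbx1neo2/neo2 carrier than in the Tbx1+/+ carrier library and higher in both drug libraries than in the control they share. Of 13 mitochondrial transcripts, mt-Nd4l (176, 177, 281, and 244 CPM) and mt-Atp8 (66, 68.5, 113, and 90.3 CPM) were higher in the minoxidil library and none was past 1.5-fold in the other 2 comparisons. Median mitochondrial shares per gated cell were 4.87%, 5.44%, 4.67%, and 5.10%. Of 10 to 11 ER stress genes compared, 1 was past 1.5-fold in each comparison, Ddit4. No gene of the macrophage, granulocyte, muscle, parathyroid, mesothelial, or thyroid list reached the 20 CPM needed to be compared, and the 1 gene compared of the endothelial, the cartilage, and the neural and glial list was not past 1.5-fold. Of the mesenchymal and erythroid lists the values are given above, and of the T lineage list Gzma alone was past 1.5-fold, lower in the Tbx1neo2/neo2 carrier than in the Tbx1+/+ carrier library, where 1 cell held 78.8% of its UMIs.

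Set against all 3 other libraries, few genes set 1 library apart. A gene was counted when it lay at least 1.5-fold above the highest or below the lowest of the other 3 without overlap, among 5933 genes. The Tbx1+/+ carrier library had 10 such genes (0.169%), 7 of them higher, led among those that reached 50 CPM by Hbb-y, Hba-x, Ifitm1, and Gadd45g. The Tbx1neo2/neo2 carrier library had 40 (0.674%), 29 of them lower. Among those that reached 50 CPM in a library, Cyr61, F830016B08Rik, Fos, Ifitm1, and Gadd45g were the lowest against the nearest library. For Fos the gap to the nearest library, minoxidil, was a log2 ratio of -1.42. The minoxidil library had 44 (0.742%), 26 higher and 18 lower, among them Nme2, Bloc1s1, Hist1h2ap, and Pgk1 and, below, by the globin genes and Cdca8. The PGE2 library had 71 (1.2%), 27 higher and 44 lower, with Cxcl10 and Rasl11a above and Umodl1, Espn, Ppp1r27, Igfbp5, and Plcd1, a phospholipase C (102, 73.9, 92.3, and 43.1 CPM), below. At these limits the PGE2 library had the most such genes, while at 2-fold (21 against 20) and with at least 50 CPM (28 against 26) the minoxidil library did.

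How far the gated cells of a library differed among themselves was read from their spread. Cells were thinned to 10000 UMIs, which left 586, 154, 125, and 156, and genes were ranked by the variance over the mean (the Fano factor, 1 for pure counting) in the library where it was lowest. Of 2406 genes with a mean of at least 0.5 UMIs in each library, the median was 0.995. The 15 highest were Malat1, Fabp5, Hmgb2, Krt8, H2afz, Ctsl, mt-Cytb, mt-Atp6, mt-Co3, Gm42418, Tbata, Ppp1r27, mt-Co1, Ptn, and Cd74, of which at least 11 stayed among the 15 under each alternative tried. Krt8 had Fano factors of 13, 12.1, 16.2, and 10.7, Ctsl of 11.6, 9.61, 13.2, and 8.61, and Cd74 of 7.64, 7.92, 5.33, and 8.77. Tbata had a median of 0 UMIs per thinned cell and a highest cell of 27, 39, 21, and 19 UMIs, and Ppp1r27 a median of 0 and a highest cell of 47, 39, 36, and 16. Prss16 was in nearly every cell, with Fano factors of 4.34, 4.50, 4.93, and 6.41. The Fano factor can rise with the mean and was not adjusted for it. Mean UMIs were 8.05, 7.95, 7.97, and 8.71 for Prss16 and 30.2, 27.1, 32.6, and 26.3 for Krt8, so these factors are not comparable. Foxn1 was close to counting, at 1.37, 1.499, 1.23, and 1.33. Tbata, at a mean no higher, had 6.90, 11.7, 5.93, and 7.58.

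**Figure D5:**
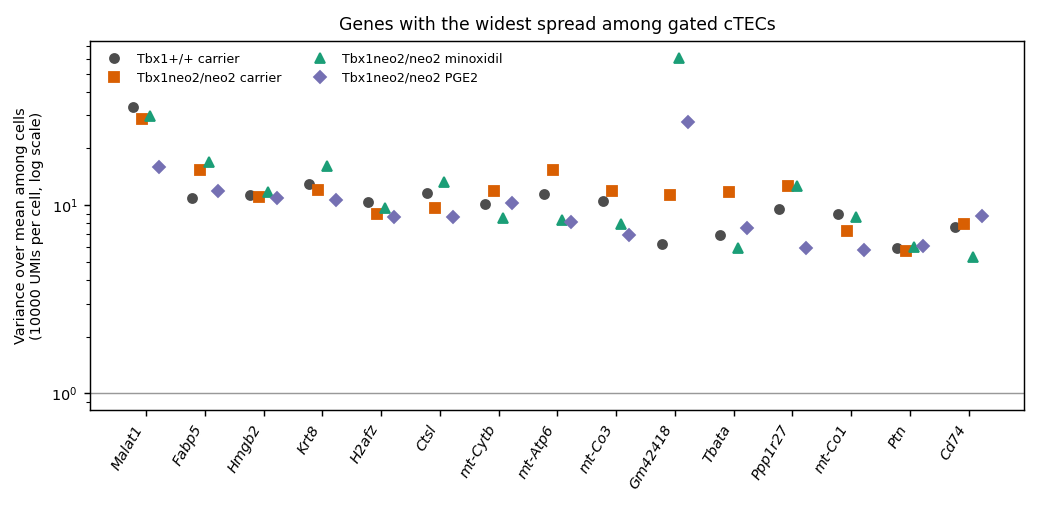
Variance over mean of UMIs among gated cTECs thinned to 10000 UMIs, on a log scale, for the 15 genes ranked highest by their lowest library, with 1 symbol for each of the 4 libraries and a line at 1, the value of pure counting. All symbols lie above 5, Malat1 is the highest in the Tbx1+/+ and Tbx1neo2/neo2 carrier libraries (33.3 and 28.6), and Gm42418 stands out in the minoxidil library (60.8).

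Some of these genes varied together within every library, given here as a description over 586, 154, 125, and 156 cells that share a library and a depth. The Spearman rank correlation of Krt8 with Tbata was 0.56, 0.47, 0.67, and 0.45, and of Ctsl with Cd74 0.56, 0.59, 0.44, and 0.50. Krt8 with Cd74 gave 0.52, 0.50, 0.58, and 0.44, Krt8 with Ctsl 0.49, 0.51, 0.43, and 0.51, and Tbata with Ppp1r27 0.34, 0.35, 0.38, and 0.33. The chromatin genes Hmgb2 and H2afz, which are high in dividing cells, went together at 0.69, 0.72, 0.53, and 0.71, and H2afz went against the nuclear RNA Malat1 at -0.61, -0.55, -0.66, and -0.59 and against Krt8 at -0.38, -0.40, -0.44, and -0.38. Cells with more Krt8 thus had more Tbata, Cd74, and Ctsl and less H2afz in all 4 libraries.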

How the data were processed

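Single cell libraries of thymic lobes, 1 per condition, were made with droplet capture, and the authors used Cell Ranger 5.0.1, the mm10 genome, and Seurat. The deposited values are UMI counts per gene and cell for 27998 features, not normalized. Whether intronic reads were counted is not given in the sources used here.

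The 9 limits of the rule were applied to the deposited counts after cells with fewer than 200 genes or over 10% mitochondrial UMIs were left out. No doublet caller was run, and an alternative left out cells over 2 times the median UMIs of the gated cells of their library or with 2 or more UMIs of markers of other cells. Counts of gated cells were summed per library and divided by the sum (CPM). Intervals are exact (95%, Poisson for levels, Clopper-Pearson for shares and, on the sum of both counts, for log2 ratios) and a sum of 0 was set to a floor of 3 UMIs in ratios. Because each condition had 1 library, no test was run. A gene was past 1.5-fold when it differed at least 1.5-fold with intervals apart, among genes at 20 CPM or more in 1 of the 2 libraries, rule genes left out. For the shares of cells with a UMI and the spread, cells were thinned to 10000 UMIs. The gate on thinned counts used the changed limits given with the shares of epithelial cells.

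Genes were named as the 10 highest and 10 lowest ratios past 1.5-fold with 50 CPM in 1 of the 2 libraries per comparison (without mitochondrial, Xist, Tsix, and Y-linked genes), the 5 each way that set a library apart, Tbx1, and members of 39 lists; a few of these genes are not reported here. The cells and the lists were chosen with earlier results of these data known. Genes named against other epithelial cells, genes stable under all alternatives, and 3 alternatives were chosen after the values were seen. Upstream sequences are RefSeq's. The steps were tested on simulated data. Python 3.11.15, numpy 2.4.6, scipy 1.17.1, pandas 2.3.3, matplotlib 3.10.9, R 4.3.3, and edgeR 4.0.16 (TMM factors only) were used. Scaling, gating, depth, mitochondrial limit, fold, and level limit were varied.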

Additional observations from a re-analysis of the deposited data

How the results depend on the processing

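The 3 comparisons kept their counts of genes past 1.5-fold, higher and lower together, within 1.5 times of 143, 254, and 216 (Tbx1neo2/neo2 carrier over Tbx1+/+ carrier, minoxidil, and PGE2) under each alternative of gating, scaling, and summing, while the limits themselves moved them. They were 26, 61, and 57 at 2-fold, 40, 95, and 68 with at least 50 CPM, and 283, 392, and 343 with at least 5 CPM. By direction, the 30 genes higher in the Tbx1neo2/neo2 carrier were 58 with reduced totals, 57 with the gate on thinned counts, 54 with the stricter gate, 48 with TMM factors, and 16 without the 3% highest cells, the 67 lower with minoxidil were 106 with reduced totals and without cells with a Top2a UMI and 40 without the 3% highest cells, and the 91 lower with PGE2 were 53 without the 3% highest cells. The genes were less stable than the counts, with 111, 219, and 211 of the main genes past 1.5-fold the same way with TMM factors and 61, 108, and 94 with at most 5% mitochondrial UMIs, which left 329, 58, 76, and 69 cells. Genes that set 1 library apart from the other 3 (10, 40, 44, and 71) numbered 4, 12, 21, and 20 at 2-fold and 4, 18, 28, and 26 with at least 50 CPM. With at least 5 CPM they were 24 for Tbx1+/+ carrier and 63 for Tbx1neo2/neo2 carrier. For the Tbx1neo2/neo2 carrier they were 25 with at most 5% mitochondrial UMIs, 65 with the gate on thinned counts, and 25 with thinned cells, the last beside 41 for PGE2. Without possible doublets they were 5, 17, and 43 (Tbx1+/+ carrier, Tbx1neo2/neo2 carrier, PGE2), 5 for Tbx1+/+ carrier without the 3% highest cells of each gene, and, without cells with a Top2a UMI, 5 for Tbx1+/+ carrier and 92 for minoxidil. The share of epithelial cells inside the gate was 15.8% for minoxidil with thinned counts and changed limits. Of the values of named genes under alternatives, 674 stayed, 186 moved, and 10 turned direction. These 10 were the log2 ratio of Itm2a between the carrier libraries (-0.31 at most 5% mitochondrial UMIs) and for minoxidil (0.29 without possible doublets), of Hbb-y between the carrier libraries (0.37 with the stricter gate, 0.20 without possible doublets, 0.19 without the 3% highest cells, and 0.26 without hemoglobin cells), of Hba-x there (0.93 with the stricter gate and 0.035 without possible doublets), and of Hbb-bs for minoxidil (0.11 without the 3% highest cells and 0.040 without hemoglobin cells). All but those of Itm2a are globin genes whose UMIs came from a few cells, and for Itm2a the cause was not tested. No paired analysis was possible because each condition had 1 library.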
